A study of Mus musculus with 8 samples.

Results

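The 6 genes of sodium handling in heart muscle examined in mouse ventricles were chosen by symbol from a table of 54429 genes: the channel subunits Scn4a, Scn10a and Scn4b, the channel partner Fgf13, and the pump genes Atp1b1 and Fxyd1. All 6 were found, each once. The mice were of the C57BL/6 strain and carried loxP sites in both Esrra and Esrrg, the genes of the estrogen-related receptors alpha and gamma. An adeno-associated virus (AAV) was injected on postnatal day 0 to 1, and both ventricles were taken at day 35. In 4 libraries, labelled AAV-Cre, the virus carried Cre recombinase under the cardiac troponin T promoter, and in the other 4, labelled AAV-Luc, it carried luciferase. The floxed alleles are present in both groups. The troponin T promoter is active in cardiomyocytes, so the other cells of the ventricle are not targeted, and the RNA came from the whole tissue. The comparison asks how expression differs when the 2 receptors are targeted in cardiomyocytes after birth.

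Voltage-gated sodium channels open at the start of the cardiac action potential, and the current they carry sets how fast it spreads. Each channel has a pore-forming alpha subunit, joined by beta subunits and by cytoplasmic partners such as the fibroblast growth factor homologous factors, which shift the voltage at which channels inactivate. The sodium pump then exports the sodium that entered. It is built of a catalytic alpha subunit and a beta subunit needed for its assembly and delivery to the membrane, and a small FXYD protein tunes its affinity for sodium.

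Paired-end reads were deposited as RPKM, that is reads scaled by gene length and by the total of the library. The low RPKM values were whole multiples of a single read, so the reads could be recovered, and the library totals were 48448859 to 61461679. Between 70.9 and 75.9% of these low read numbers were even, as counting both reads of a pair gives, so independent fragments are fewer than reads. The targeted genes were checked first. Esrrg stood at 217.9 ± 17.7 RPKM under the AAV-Cre label and at 112.7 ± 5.51 under AAV-Luc (SD, n = 4 each). It was thus higher, not lower, in the libraries labelled AAV-Cre. Esrra measured 39.1 ± 4.66 and 45.1 ± 3.66 RPKM, a difference that did not pass (log2 fold change -0.21, limma adjusted p = 0.0705) but did after each library was centred on its median (-0.62, adjusted p = 0.000549), while Esrrg stayed higher (0.54). These values cover the whole gene and do not show whether floxed exons were lost, so the groups are called by their labels. The median log2 fold change over the 16385 genes tested was 0.41, a factor of 1.33, toward AAV-Cre. Values are therefore also given after each library was centred on its median. The numbers of the libraries follow the columns and serve as names. Nothing in the labels ties a library to a mouse of its own, so the spread behind the p-values could be technical in part.

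Of the 6 genes, Atp1b1 rose and Fgf13 fell in the libraries labelled AAV-Cre, Scn10a was higher and Scn4b lower at low levels, and Scn4a and Fxyd1 did not pass the test. The 4 genes Scn4a, Fgf13, Atp1b1 and Fxyd1 had at least 1 RPKM in every library and entered the limma fit, in which 2 of them passed an adjusted p of 0.05. Of all genes tested, 73.3% passed, 64.4% higher and 8.87% lower, so 2 of 4 is no more than the table as a whole gives. After centring 3 of the 4 passed, Atp1b1 higher and Fgf13 and Fxyd1 lower, against 45.9% of all genes (21.8% higher, 24.1% lower). Scn10a and Scn4b lay below the filter of 1 RPKM in at least 4 libraries. They have an exact permutation test here, and an adjusted p from a fit to the recovered reads (limma voom), which was added after the values were seen and in which 63.9% of 20760 genes passed (56.6% higher, 7.28% lower), or 39.9% after centring (17.1% higher, 22.7% lower). In that fit Scn10a and Atp1b1 were higher and Scn4b and Fgf13 lower, and after centring Fxyd1 was lower too. The groups did not overlap in 4 of the 6 genes, Scn10a and Atp1b1 higher and Scn4b and Fgf13 lower, against 57.0% of the genes in that fit (50.6% higher, 6.41% lower). With 4 libraries against 4, an exact two-sided p cannot be below 0.0286.

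The levels of the 6 genes kept apart from each other within each group. In AAV-Luc the mean RPKM ran from Fxyd1 (180.0) through Atp1b1 (80.9), Fgf13 (26.2), Scn4a (2.37) and Scn4b (0.898) to Scn10a (0.251). In AAV-Cre the order was the same, except that Scn10a (0.891) stood above Scn4b (0.477). Neighbours in either order did not overlap in their ranges over libraries. RPKM appears to divide by the length of the first listed transcript of each gene, each exon counted as its end minus its start, which gives 537 for Fxyd1 and 6574 for Scn4a. Levels of different genes therefore carry the choice of transcript, while ratios between libraries do not.

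**Figure D1:**
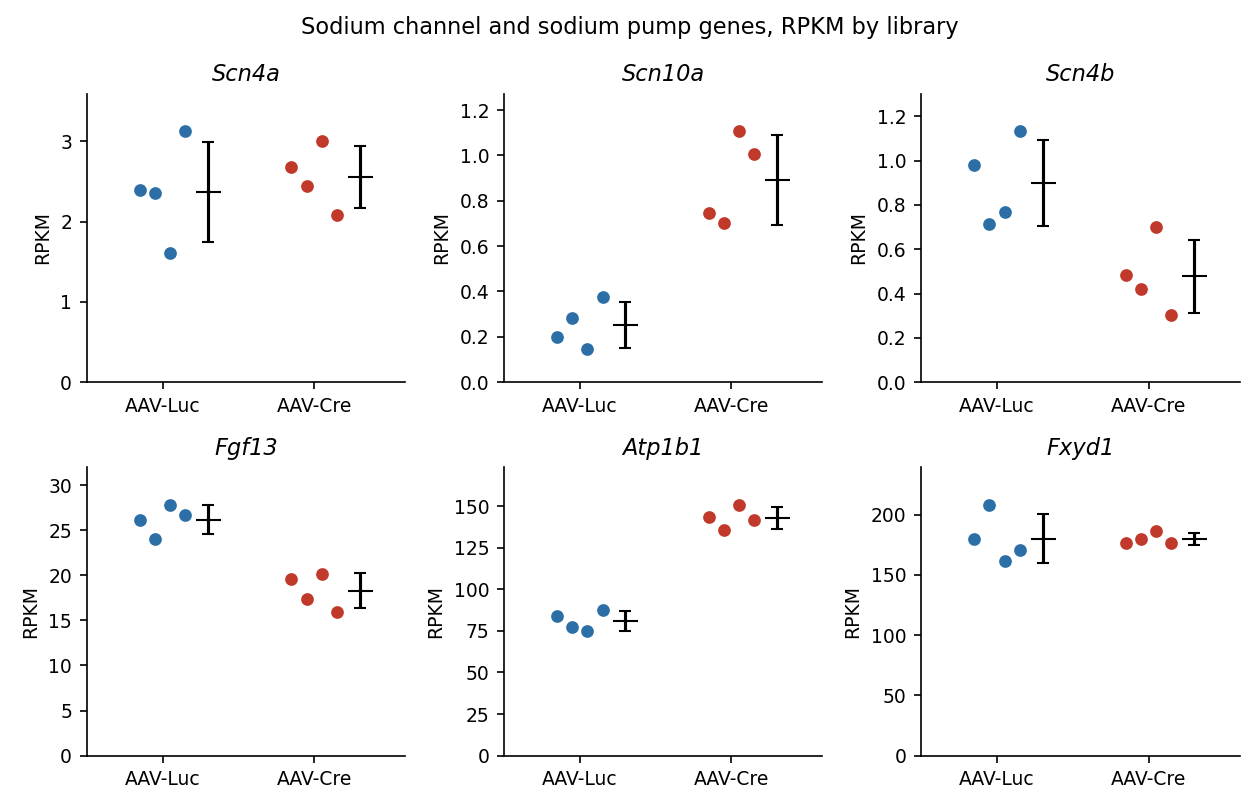
RPKM of the 6 genes in each library (points), with the mean and SD of each group (bars, n = 4); each panel has its own vertical axis from 0. The groups are apart in Scn10a, Scn4b, Fgf13 and Atp1b1, and overlap in Scn4a (1.61 to 3.13 RPKM over all 8) and Fxyd1 (161.8 to 208.3).

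Sequences upstream of the start sites are shown for the gene that rose, the gene that fell and the abundant gene that did not pass. They are the 250 bases before a RefSeq start on GRCm38.p6, the assembly of mm10, and are windows that touch no annotated exon. All 6 genes were matched to RefSeq starts. The windows of Scn4a, Scn10a and Scn4b overlap annotated exons and are not printed. Fgf13 has 4 RefSeq starts, of which the farthest upstream is shown, although it lies outside the span of the gene given below. Each runs 5′ to 3′ on the gene's own strand, which is minus for all 3, and capitals mark motif matches. The motifs were chosen with the sequences known.
Atp1b1, chr1:164458356-164458605: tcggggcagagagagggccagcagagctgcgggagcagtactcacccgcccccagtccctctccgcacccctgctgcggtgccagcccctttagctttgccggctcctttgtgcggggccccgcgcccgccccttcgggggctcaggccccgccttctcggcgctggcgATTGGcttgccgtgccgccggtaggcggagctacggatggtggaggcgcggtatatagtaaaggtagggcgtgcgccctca
Fgf13, chrX:59585573-59585822: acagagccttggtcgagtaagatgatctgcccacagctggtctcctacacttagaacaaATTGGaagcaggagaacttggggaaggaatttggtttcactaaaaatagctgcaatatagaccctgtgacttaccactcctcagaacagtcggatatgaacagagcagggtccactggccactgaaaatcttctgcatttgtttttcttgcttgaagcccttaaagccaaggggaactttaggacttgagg
Fxyd1, chr7:31054854-31055103: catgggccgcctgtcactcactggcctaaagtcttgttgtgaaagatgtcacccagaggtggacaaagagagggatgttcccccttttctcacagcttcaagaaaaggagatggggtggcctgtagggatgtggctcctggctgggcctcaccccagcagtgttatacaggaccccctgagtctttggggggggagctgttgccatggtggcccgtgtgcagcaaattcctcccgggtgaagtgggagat

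The motifs searched, on both strands, were the receptors' extended site TNAAGGTCA, its core AGGTCA, the TATAAA box and the CCAAT box. In all 32851 promoter windows of the same length they were found in 1.14%, 14%, 12.4% and 33.8%. The core lies inside the extended site, so those 2 are not separate. The Atp1b1 window has a CCAAT box on the opposite strand, read as ATTGG, at 81 bases before the start. The Fgf13 window shown has a CCAAT box on the opposite strand at 191 bases before the start. The windows of the other Fgf13 starts have none of the motifs. The Fxyd1 window has none of them. The receptors' site and its core were not found in any window of the 6 genes. A match is only a match of letters, and none found covers only these windows.

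Scn10a, which encodes Nav1.8, the channel of sensory neurons that is also known from cardiac conduction, was 3.55 times as abundant in the libraries labelled AAV-Cre. Scn4a, which encodes Nav1.4, the main channel of skeletal muscle, showed no difference that passed.

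Scn10a lies on chromosome 9 from 119608456 to 119719322 (mm10, minus strand). It measured 0.747, 0.702, 1.11 and 1.01 RPKM in AAV-Cre 1 to 4 and 0.199, 0.281, 0.145 and 0.378 in AAV-Luc 1 to 4. Every AAV-Cre library stood above every AAV-Luc library. These rest on 257 to 383 reads per library in AAV-Cre and 55 to 137 in AAV-Luc. The means were 0.891 ± 0.197 and 0.251 ± 0.102 RPKM (SD, n = 4 each), with a two-sided exact permutation p of 0.0286. On the recovered reads the log2 fold change was 1.90 (SE 0.26, limma voom adjusted p = 5.58e-05), and 1.39 after centring (adjusted p = 0.000803).

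Scn4a lies on chromosome 11 from 106318592 to 106353288 (minus strand). It measured 2.68, 2.44, 3.01 and 2.09 RPKM in AAV-Cre 1 to 4 and 2.39, 2.35, 1.61 and 3.13 in AAV-Luc 1 to 4. The highest and the lowest value both came from AAV-Luc, and the AAV-Cre values lay between them. The log2 fold change of Scn4a was 0.11 (SE 0.16, limma adjusted p = 0.569), and -0.30 after centring (SE 0.15, adjusted p = 0.139), so its sign depends on the scaling. Without AAV-Luc 3 it was -0.03.

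Among other pore subunits, Scn7a, which encodes a sodium-sensing channel, rose by a log2 fold change of 0.67 (adjusted p = 0.0034) but did not pass after centring (0.26, adjusted p = 0.211). Scn2a had 0.737 ± 0.160 and 0.451 ± 0.034 RPKM in AAV-Cre and AAV-Luc, groups that did not overlap. On the recovered reads its log2 fold change was 0.68 (limma voom adjusted p = 0.019), but 0.18 after centring (adjusted p = 0.547).

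Markers of other tissues were also higher in AAV-Cre, and their part in the result for Scn10a was not tested. The counts below stand beside 64.4% of all genes higher, and 21.8% higher and 24.1% lower after centring. Of 15 neuron and Schwann cell markers, 5 were tested and 4 were higher in AAV-Cre, but after centring 1 was higher and 1 lower. Their summed RPKM was 17.9 to 22.8 in AAV-Cre and 9.98 to 11.2 in AAV-Luc, of which Uchl1 gave 12.5 ± 2.06 and 4.11 ± 0.360. Chat was at 0 in every library but AAV-Luc 1, and Snap25 was at 0 in 6 of the 8. Of markers below the filter, Prph and Mbp were higher on the recovered reads. Their log2 fold changes were 1.35 and 0.77 (limma voom adjusted p = 0.0125 and 0.0033), and neither passed after centring. Sox10 and Kcna1 did not pass in that fit, and Kcna1 was lower after centring. Of 10 conduction system markers, 4 were tested and 3 were higher, or 1 after centring, with sums of 35.1 to 39.0 and 24.2 to 28.1 RPKM. Hcn4, the pacemaker channel, was not among the 3 (1.32 ± 0.176 and 1.24 ± 0.2995 RPKM). Of 9 atrial markers, 8 were tested and 6 were higher, or 5 with 1 lower after centring. Their sums were 2205 to 2484 and 568.1 to 679.7 RPKM, most of it Pam (2184 ± 94.9 and 576.2 ± 35.1). Myl7, Myl4 and Dkk3 rose by log2 fold changes of 2.743, 2.376 and 2.375, and stayed higher after centring. Nr2f2 and Adm did not pass, and Adm was lower after centring. Of 19 skeletal muscle markers, 6 were tested, with sums of 48.5 to 75.9 and 9.09 to 15.4 RPKM. Casq1, at 33.7 ± 9.04 and 9.22 ± 2.91 RPKM, was higher, also after centring. The other 5 tested, Tnnt3, Tnni2, Mylpf, Cacna1s and Atp2a1, reached the filter only with the AAV-Cre libraries, so the filter favoured genes higher there. On the recovered reads, which have another filter, all 5 were higher, with log2 fold changes from 1.22 (Tnnt3) to 3.31 (Atp2a1). All but Tnnt3 passed after centring too. In that fit 56.6% of all genes were higher, or 17.1% after centring. The skeletal myosins Myh1, Myh2 and Myh4 were at or near 0 in every library, with means of at most 0.00681 RPKM. In whole ventricle, a change in the number of cells of a type and a change in RNA per cell cannot be told apart.

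Scn4b, which encodes the beta-4 subunit linked to resurgent current and covalently bound to the alpha subunit, was lower in the libraries labelled AAV-Cre, at 0.531 of the AAV-Luc mean. It is a beta subunit expressed here at a low level.

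Scn4b lies on chromosome 9 from 45138395 to 45154152 (plus strand). It measured 0.485, 0.421, 0.699 and 0.304 RPKM in AAV-Cre 1 to 4 and 0.981, 0.713, 0.766 and 1.13 in AAV-Luc 1 to 4. The groups did not overlap, but AAV-Cre 3 lay close to AAV-Luc 2. The reads behind these values were 90 to 182 per library in AAV-Cre and 172 to 320 in AAV-Luc. The means were 0.477 ± 0.166 and 0.898 ± 0.195 RPKM (SD, n = 4 each; two-sided exact permutation p = 0.0286). On the recovered reads the log2 fold change of Scn4b was -0.97 (SE 0.23, limma voom adjusted p = 0.0028), and -1.48 after centring (adjusted p = 0.000241). With the libraries centred on cardiomyocyte markers the exact permutation p was 0.0571. It was also 0.0571 with any single library other than AAV-Cre 3 left out, although the groups then still did not overlap. With groups of unequal size, another arrangement can give as large a difference, so these p-values do not show a dependence on single libraries.

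Of other beta subunit genes at low levels, Scn3b reached at most 0.391 RPKM in a library and Scn2b at most 0.0843, and in both the groups overlapped.

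Fgf13, the homologous factor that binds the tail of sodium channels and is the main one of the mouse ventricle, fell to 0.698 of its AAV-Luc mean in the libraries labelled AAV-Cre. Fgf12, a close relative and the main one of the human heart, rose from 0.204 ± 0.098 to 11.4 ± 2.25 RPKM. Their proportions in the family thus differed more than the level of Fgf13 itself.

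Fgf13 lies on chromosome X from 59062145 to 59568071 (minus strand). It measured 19.54, 17.37, 20.18 and 15.98 RPKM in AAV-Cre 1 to 4 and 26.15, 24.06, 27.83 and 26.66 in AAV-Luc 1 to 4. Every AAV-Cre library was below every AAV-Luc library. The reads behind them were 2372 to 2828 and 2907 to 4115. The log2 fold change of Fgf13 was -0.51 (SE 0.09, limma adjusted p = 0.000486), and -0.92 after centring (adjusted p = 6.2e-05). RPKM is 1 value per gene and does not separate start sites. Of the 4 RefSeq starts, the farthest upstream lies outside the span given here, so reads from that start may not all be counted.

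Fgf12 measured 10.3, 13.7, 12.8 and 8.81 RPKM in AAV-Cre 1 to 4 and 0.244, 0.320, 0.098 and 0.153 in AAV-Luc 1 to 4. It rested on 2167 to 3242 reads in AAV-Cre and 24 to 64 in AAV-Luc, and its log2 fold change was 4.07 on the RPKM + 0.5 scale (limma adjusted p = 1.3e-07) and 5.93 on the reads. It passed the filter through the AAV-Cre libraries alone. Fgf11 and Fgf14 rose by 0.89 and 0.57 on the log2 scale (adjusted p = 0.000244 and 0.0013), of which Fgf14 did not pass after centring. Fgf13 held 85.4 to 90.0% of the summed RPKM of the 4 factors in AAV-Luc and 46.1 to 54.6% in AAV-Cre. Fgf12 held 0.317 to 1.16% in AAV-Luc and 28.1 to 36.4% in AAV-Cre. The ratio of Fgf12 to Fgf13 was 0.00352 to 0.0133 in AAV-Luc and 0.527 to 0.789 in AAV-Cre.

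The wider list of channel partners held 19 genes, all tested, of which 14 rose and 3 fell. Their median log2 fold change was 0.55, beside 0.41 over all genes tested. Over all genes 64.4% were higher and 8.87% lower. After centring 7 of the 19 were higher and 6 lower, against 21.8 and 24.1% of all genes. Besides Fgf13, those that fell were Rangrf, which encodes MOG1, a factor for delivery of sodium channels to the membrane (22.9 ± 3.39 and 55.9 ± 7.80 RPKM, log2 fold change -1.27), and the deubiquitinase gene Usp2 (-0.70). Sntb1, a syntrophin gene, rose by 1.43. Cav3, the caveolin of muscle, rose by 0.71. Ank2 had a log2 fold change of 0.14 that did not pass (adjusted p = 0.0644), though it passed without AAV-Cre 4 (adjusted p = 0.0479). After centring Ank2 was lower (-0.27, limma adjusted p = 0.00589), so its sign depends on the scaling.

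**Figure D2:**
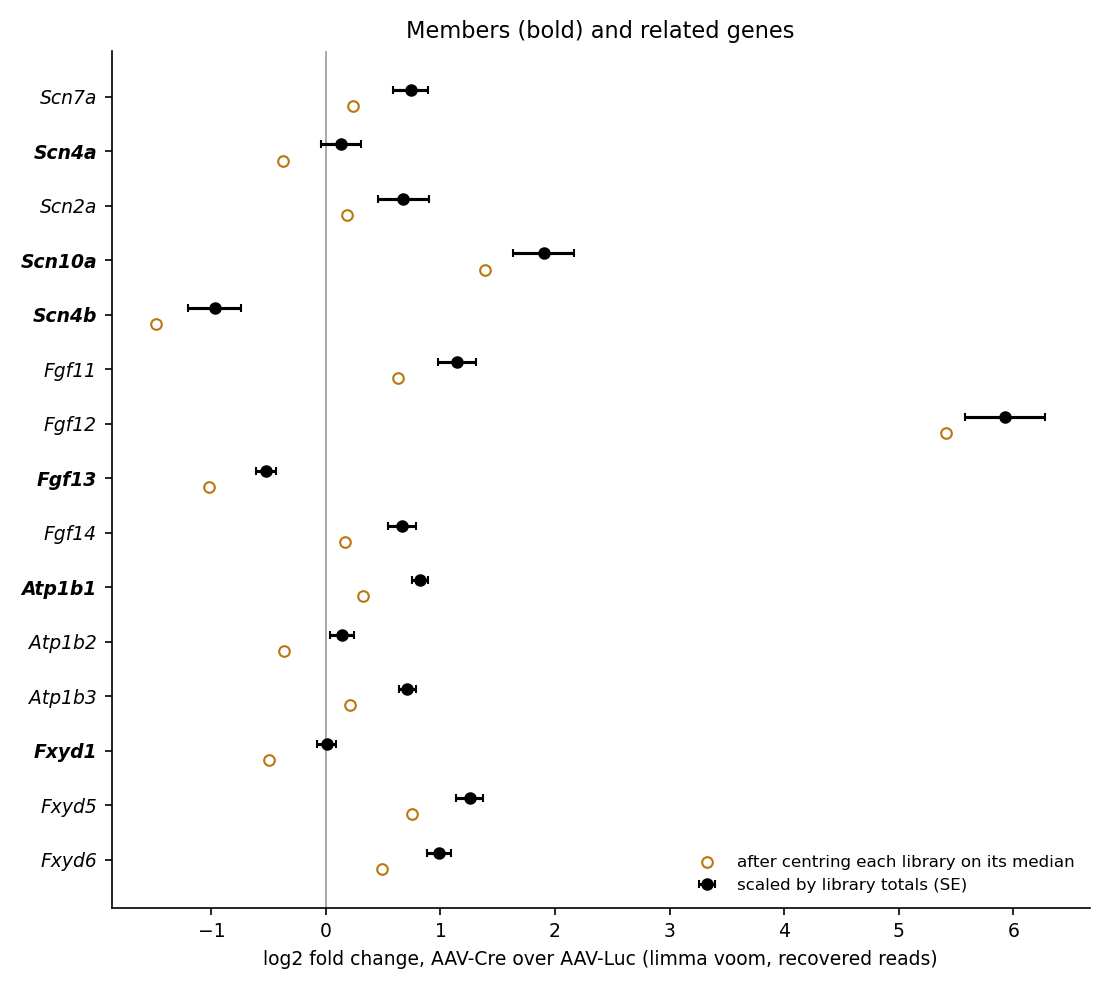
Log2 fold change of the 6 genes (bold) and related genes, AAV-Cre over AAV-Luc, from limma voom on the recovered reads; filled points are scaled by library totals with bars of 1 SE, open points follow centring of each library on its median. Fgf12 lies far to the right at 5.93, Scn10a at 1.90, while Scn4b and Fgf13 lie left of 0 under both scalings.

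Atp1b1, the main beta subunit of the heart, was 1.76 times as abundant in the libraries labelled AAV-Cre. Fxyd1, which encodes phospholemman, the inhibitor of the cardiac pump that is relieved by phosphorylation, had the same mean in both groups.

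Atp1b1 lies on chromosome 1 from 164437109 to 164458355 (minus strand). It measured 143.5, 135.4, 150.8 and 141.6 RPKM in AAV-Cre 1 to 4 and 83.83, 77.1, 75.01 and 87.64 in AAV-Luc 1 to 4. The groups were far apart, with 19958 to 21692 reads per library in AAV-Cre and 9615 to 13262 in AAV-Luc. The log2 fold change of Atp1b1 was 0.82 (SE 0.07, limma adjusted p = 8.9e-06), and 0.41 after centring (adjusted p = 0.000894). Of its exon bases, 575 (18.7%) are shared with Nme7 on the opposite strand. Nme7 also rose, from 17.6 ± 1.37 to 27.5 ± 0.105 RPKM (log2 fold change 0.63), and since the use of strand is not stated, reads of the shared bases cannot be told apart. The other 5 genes share no exon bases with another gene.

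The other beta subunits did not all move. Atp1b3 rose from 20.7 ± 1.33 to 33.9 ± 2.15 RPKM (log2 fold change 0.70, adjusted p = 2.7e-05), whereas Atp1b2 had 0.13 (adjusted p = 0.275), and -0.28 after centring (adjusted p = 0.0273). Atp1b1 held 73.6 to 75.8% of the beta RPKM in AAV-Luc and 75.6 to 79.5% in AAV-Cre, ranges that overlap.

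Fxyd1 lies on chromosome 7 from 31051678 to 31057199 (minus strand). It measured 176.5, 180.2, 186.7 and 176.6 RPKM in AAV-Cre 1 to 4 and 179.5, 208.3, 161.8 and 170.4 in AAV-Luc 1 to 4. The 4 AAV-Cre values lay inside the AAV-Luc range. They rest on 5151 to 5925 reads per library over both groups. The log2 fold change of Fxyd1 was 0.01 (SE 0.08, limma adjusted p = 0.949), and -0.40 after centring (SE 0.07, adjusted p = 0.00111). The call on Fxyd1 thus depends on whether values are read relative to the library total or to the median gene.

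The ratio of Fxyd1 to Atp1b1 did not overlap between the groups, at 1.94 to 2.70 in AAV-Luc and 1.23 to 1.33 in AAV-Cre. A ratio within a library does not depend on the scaling of libraries, and it is given as a description, without a test. Of the 7 FXYD genes, 6 were tested, and Fxyd3, Fxyd5 and Fxyd6 rose while none fell, against 64.4% of all genes higher. After centring these 3 stayed higher and Fxyd1 was lower. Fxyd5, which encodes dysadherin, rose from 7.44 ± 0.704 to 17.8 ± 2.35 RPKM (log2 fold change 1.2), and Fxyd6 from 13.4 ± 1.59 to 26.6 ± 3.2 (0.96). Fxyd3 passed the filter through AAV-Cre alone. Fxyd1 held 87.2 to 88.8% of the family's RPKM in AAV-Luc and 75.8 to 80.2% in AAV-Cre. Fxyd7 had 0.53 (adjusted p = 0.0672) and passed without AAV-Luc 4 (adjusted p = 0.00947), but had 0.12 after centring (limma adjusted p = 0.689).

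**Figure D3:**
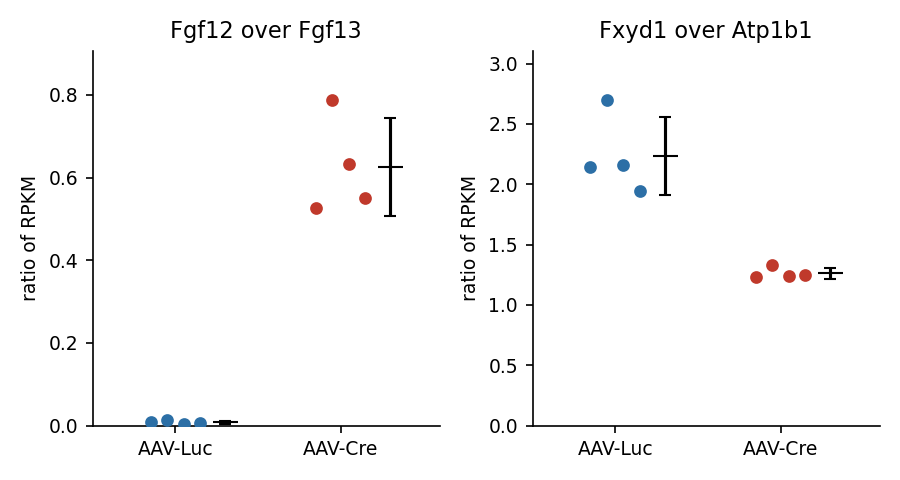
Ratios of RPKM within each library (points) with the mean and SD of each group (n = 4): Fgf12 over Fgf13 and Fxyd1 over Atp1b1, each axis from 0. Neither ratio overlaps between groups (0.527 to 0.789 in AAV-Cre against 0.00352 to 0.0133 in AAV-Luc, and 1.23 to 1.33 against 1.94 to 2.70).

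Markers of several cell types also differed between the groups, in both directions, and their part in the results for the pump genes was not tested. Over all genes 64.4% were higher and 8.87% lower, and after centring 21.8 and 24.1%. All 10 fibroblast markers were higher in AAV-Cre, 8 after centring, with sums of 1449 to 2592 and 630.1 to 781.7 RPKM, and all 10 macrophage markers were higher, 9 after centring, with sums of 339.1 to 454.2 and 169.1 to 182.5. Of 15 cardiomyocyte markers, 5 were higher and 6 lower, and after centring none was higher and 10 were lower. Of 10 endothelial markers 2 were higher and 1 lower, but 1 higher and 8 lower after centring. Of 10 smooth muscle and pericyte markers 6 were higher and 2 lower, and 5 higher and 4 lower after centring. Leaving out the library with the most Myl7, an atrial marker, from each group (AAV-Cre 3 and AAV-Luc 2, a choice made after seeing the data) gave Atp1b1 a log2 fold change of 0.77 (limma adjusted p = 0.000167). Scn10a then had 0.84 and Scn4b -0.69 as differences of log2(RPKM + 0.5), beside 0.89 and -0.52 over all 8 libraries.

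Among other sodium transporters, 9 of 14 were tested, of which 8 rose and none fell, with a median of 0.56 beside 0.41 over all genes, of which 64.4% were higher. After centring 4 were higher, against 21.8% of all genes. Slc8a1, the sodium-calcium exchanger of cardiomyocytes, rose from 62.1 ± 5.49 to 106.1 ± 10.4 RPKM (log2 fold change 0.77), Slc6a8, the creatine transporter, rose by 1.12 and Slc4a4, a sodium bicarbonate cotransporter, by 0.98. Of 14 transcription factors of cardiac excitability, all tested, 10 rose and none fell (median 0.46), against 64.4% of all genes higher. After centring 3 were higher and 3 lower, against 21.8 and 24.1%. Nkx2-5 and Tbx5, factors of the conduction system and chambers, rose by 0.81 and 0.70, but Tbx5 did not pass after centring (0.29, adjusted p = 0.15). Tbx3, known from conduction tissue, had -0.03 (adjusted p = 0.886).

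**Figure D4:**
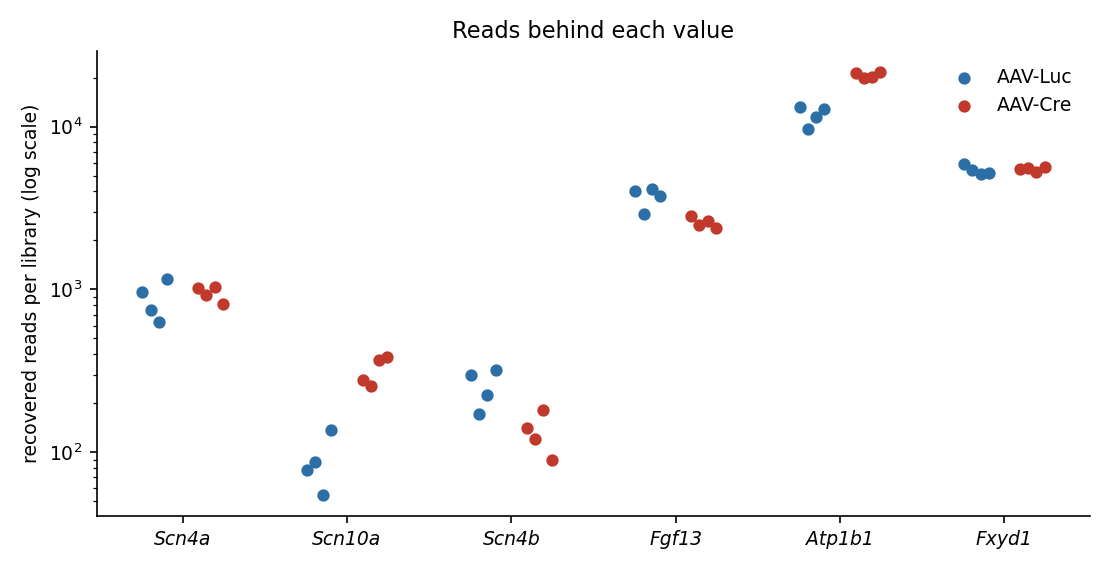
Recovered reads per library behind the values of the 6 genes, on a log axis. Scn10a and Scn4b rest on 55 to 383 reads per library and Atp1b1 on 9615 to 21692.

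The genes whose profiles over the 8 libraries lay nearest to each of the 6 were found among 7921 tested genes averaging at least 5 RPKM, by the root mean square difference of centred log2(RPKM + 0.5) values. For Atp1b1 they were Rexo4 (0.0374) and P2rx4 (0.0507), and for Fgf13 they were C1qbp (0.0657) and Ptgr2 (0.0693). The nearest to Fxyd1 were Vps4a (0.0415) and Ndufa11 (0.0464), and to Scn4a Inf2 (0.0856) and Klc4 (0.0929). Scn10a was nearest to Ccdc107 (0.0633) and Lix1l (0.104), and Scn4b to Opcml (0.0884) and Ppp1r13l (0.108). At the low levels of Scn10a and Scn4b the added 0.5 shrinks the difference between groups, so the genes of these last pairs differ less in RPKM: Ccdc107 had means of 20.7 and 11.1 RPKM.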

How the data were processed

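RNA of 8 mouse ventricle libraries was measured, 4 labelled AAV-Cre and 4 AAV-Luc. The authors deposited RPKM per gene in a single table. Per the labels' protocols, poly(A)-enriched libraries were sequenced as read pairs in 1 lane, and both a TruSeq and a NEBNext kit are named without saying which was used for which. The submitters' processing notes name STAR, edgeR, FastQC 0.11, Partek 6.6 and mm10. Which annotation was counted, and whether by strand, is not given in the sources here. The value columns name a group but no sample, so each was taken as a replicate of its group.

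Values multiplied by the summed exon length of the gene's first transcript in GENCODE M21, each exon taken as end minus start and so 1 base short, were whole multiples of 1 step, within 0.01, for 99.3 to 99.5% of low values. Reads were whole in all libraries for 34784 of 36040 genes (96.5%), and all reads together came to 99.7 to 101% of the totals.

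The main fit was limma 3.58.1 (R 4.3.3) for genes reaching 1 RPKM in 4 or more libraries, on the log2(RPKM + 0.5) scale, using a variance trend and Benjamini-Hochberg adjustment over 16385 genes. This understates fold changes of low genes. Single genes had two-sided exact permutation tests over 70 arrangements. limma voom on the recovered reads (at least 10 in at least 4 libraries, scaled by totals) was added after seeing the data. No set test was used. The scripts were tested on simulated data. Python 3.11.15, numpy 2.4.6, pandas 2.3.3 and matplotlib 3.10.9 were used for annotation and plots. The genes and lists were chosen with earlier results of these data known. The genes named are the 6 chosen, genes of the related and marker lists, and for each of the 6 the 2 genes with the most similar profile, leaving out unnamed gene models and pseudogenes. Some related genes are not reported here. Alternatives were other pseudocounts, filters, scalings, variance priors and library weights, and leaving out libraries.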

Additional observations from a re-analysis of the deposited data

How the results depend on the processing

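Atp1b1 and Fgf13 kept their direction and their side of the adjusted p threshold under every alternative that gave them a test. Scn10a kept its direction, but most of its tests were exact permutation tests without adjustment. Their p stayed at 0.0286, its lowest possible value, where it remains with 4 against 4 as long as the groups do not overlap. Adjusted p-values for Scn10a came from limma without a filter (0.0013) and limma voom (5.58e-05, and 0.000803 after centring). Leaving out each library in turn gave a log2 fold change of 0.78 to 0.86 for Atp1b1, -0.56 to -0.45 for Fgf13, 0.82 to 0.97 for Scn10a, -0.63 to -0.43 for Scn4b, -0.033 to 0.23 for Scn4a (negative without AAV-Luc 3) and -0.043 to 0.078 for Fxyd1 (-0.012 without AAV-Cre 3, -0.043 without AAV-Luc 3 and -0.018 without AAV-Luc 4). The exact permutation p was then 0.0286 for Scn10a each time, and for Scn4b 0.0286 without AAV-Cre 3 and 0.0571 with any other single library left out. The Scn4b groups did not overlap in any of these. With groups of unequal size, another arrangement can give as large a difference. Centring on the median gave -0.30 for Scn4a and -0.40 for Fxyd1, quantile normalization -0.32 and -0.21 (limma adjusted p = 0.0212 for Fxyd1), library quality weights -0.028 and -0.0036, and voom with centring -0.38 and -0.49. Leaving out mitochondrial and haemoglobin genes gave Fxyd1 -0.065. Centring on cardiomyocyte markers gave Fxyd1 0.17 (limma adjusted p = 0.044) and Scn4b -0.43 (exact permutation p = 0.0571). Genes past the threshold numbered 12013 (10559 higher, 1454 lower), and 11248 to 11767 (9909 to 10374 higher, 1306 to 1571 lower) with a library left out. They numbered 7705 (6607 higher) with a mean of at least 5 RPKM, where fewer genes are tested, 7527 (3578 higher, 3949 lower) with centring, 7648 (3810 higher, 3838 lower) with quantile normalization, and 3560 higher and 4718 lower with voom and centring. The causes of these changes were not tested. A mean of at least 5 RPKM gives no value for Scn4a, Scn10a and Scn4b, and a robust prior and weights none for Scn10a and Scn4b. Depth limits Scn10a and Scn4b most. No paired analysis was possible because the value columns carry no replicate number that links them to samples.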
